A study of Rattus norvegicus with 120 samples.

Results

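Cytochrome P450 genes were followed through kidney and heart of lean and obese ZSF1 rats. The genes were chosen by their deposited symbols: every symbol made of Cyp, a family number, a subfamily letter and a gene number was taken, except Cyp24a1, Cyp27b1, Cyp26b1, Cyp2c11 and Cyp2c24. This gave 67 gene IDs with 66 symbols, of 30560 gene IDs in the count tables, 23398 of which carry a symbol. P450 genes under symbols of another form are not among them. Cyp4a2 stands under both ENSRNOG00000064139 and ENSRNOG00000066487, and each ID was kept as its own row. Poly-A RNA was sequenced from frozen tissue of rats aged 30 weeks that took their compounds with the chow, with 10 rats in each condition. Study A held ZSF1 lean rats on vehicle, ZSF1 obese rats on vehicle and ZSF1 obese rats on BT2, an inhibitor of the kinase that switches off branched-chain amino acid oxidation. Study B held ZSF1 obese rats on vehicle, on empagliflozin, an inhibitor of the renal glucose transporter SGLT2, or on BT2 together with empagliflozin, called the combination here. ZSF1 obese rats lack a working leptin receptor and develop obesity, diabetes and kidney disease on a hypertensive background, while lean rats carry a working copy. All groups compared within a study were of the same age, and only study A held lean rats. Some kidney samples were whole kidney and some cortex, and the labels do not say which, so groups of the same study may differ in this too. Groups were compared directly within a study only, while differences of BT2 effects span the studies.

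Cytochrome P450 enzymes are heme proteins that insert an oxygen atom into fatty acids, sterols, steroids, retinoids, vitamin D and foreign compounds, with electrons supplied by P450 reductase, cytochrome b5 or, in mitochondria, ferredoxin. In the kidney, proximal tubule cells hold CYP4A enzymes, which hydroxylate arachidonic acid at its tail to the vasoactive lipid 20-HETE, and CYP2C23, which makes the epoxides (EETs) that oppose it. Many P450 genes are switched by ligand-activated receptors: CYP4A genes by the fatty acid receptor PPARA, CYP1 genes by the aryl hydrocarbon receptor (AHR), and bile acid genes such as Cyp8b1 by sterol and bile acid receptors.

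Promoters are shown for the CYP4A genes Cyp4a2, Cyp4a3 and Cyp4a8. Cyp4a2 and Cyp4a3 fell in the obese kidney and rose with the combination, while Cyp4a8 rose in the obese kidney. Promoters of Cyp8b1 and Cyp1b1, which had the largest fold changes in the obese kidney of the members tested, are shown too. Of the 66 symbols, 54 matched the RefSeq promoter table of build GRCr8, with 58 promoters in all. Cyp4a1 had no match, so its promoter could not be searched. Each sequence gives the 250 bases before the annotated start, 5′ to 3′ on the gene's strand. Capitals mark AGGTCA, the 6-base core bound by nuclear receptors, or GCGTG, the core bound by the AHR complex, on either strand. The table was matched by symbol, and the Cyp4a2 promoter cannot be assigned to one of the Cyp4a2 IDs.
Cyp4a2, chr5:134170909-134171158, minus strand: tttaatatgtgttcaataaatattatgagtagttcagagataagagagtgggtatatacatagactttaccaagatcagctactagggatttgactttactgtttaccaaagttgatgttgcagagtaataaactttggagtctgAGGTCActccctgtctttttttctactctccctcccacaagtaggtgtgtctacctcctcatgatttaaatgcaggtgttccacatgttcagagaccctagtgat
Cyp4a3, chr5:134352237-134352486, minus strand: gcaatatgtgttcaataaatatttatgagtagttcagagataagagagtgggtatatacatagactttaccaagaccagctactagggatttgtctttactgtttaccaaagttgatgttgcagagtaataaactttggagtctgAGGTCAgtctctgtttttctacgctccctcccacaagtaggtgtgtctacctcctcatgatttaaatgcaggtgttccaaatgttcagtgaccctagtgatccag
Cyp4a8, chr5:133970227-133970476, minus strand: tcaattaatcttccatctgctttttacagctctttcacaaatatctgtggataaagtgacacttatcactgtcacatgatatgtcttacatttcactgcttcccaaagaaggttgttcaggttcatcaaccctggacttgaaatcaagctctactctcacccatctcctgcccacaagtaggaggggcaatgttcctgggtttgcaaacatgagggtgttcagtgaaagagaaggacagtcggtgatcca
Cyp8b1, chr8:130457593-130457842, minus strand: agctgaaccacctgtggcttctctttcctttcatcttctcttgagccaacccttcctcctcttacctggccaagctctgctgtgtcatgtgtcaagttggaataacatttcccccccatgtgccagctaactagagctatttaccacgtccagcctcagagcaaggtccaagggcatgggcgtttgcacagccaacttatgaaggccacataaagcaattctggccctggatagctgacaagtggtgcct
Cyp1b1, chr6:21094315-21094564, plus strand: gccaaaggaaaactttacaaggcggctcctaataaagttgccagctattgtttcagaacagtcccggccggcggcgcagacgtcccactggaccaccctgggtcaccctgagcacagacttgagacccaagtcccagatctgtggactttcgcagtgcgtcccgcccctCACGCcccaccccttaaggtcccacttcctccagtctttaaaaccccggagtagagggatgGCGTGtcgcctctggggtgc
The Cyp4a2 and Cyp4a3 promoters were identical at 236 of 245 aligned bases (96.3%), and both held AGGTCA on the gene strand at 105 to 100 bases before the start. The Cyp4a8 promoter was identical to that of Cyp4a2 at 60.6% of aligned bases, a share close to the 60.9% between Cyp4a3 and Cyp1b1, and held neither motif in this window. Cyp1b1 held GCGTG at 81 to 77 bases before the start on the other strand and at 20 to 16 bases on the gene strand. Searched on both strands, AGGTCA occurred in 14.1% of all 33469 promoters and in 19 of the 58 P450 promoters (32.8%). The spaced repeat AGGTCANAGGTCA, the form bound by PPARA, which contains AGGTCA, occurred in 0.0508% of all promoters and in 0 of the 58. GCGTG occurred in 25.9% of all promoters and in 17 of the 58 (29.3%), and the start-site element TATAAA in 12.9% of all promoters and in 14 of the 58 (24.1%). A match describes these letters only and shows no binding.

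Values are CPM, counts per 1000000 counts of a library, scaled with TMM factors, and a fold change is given as log2 ± its standard error (SE). Genes were called with edgeR's quasi-likelihood F test at a Benjamini-Hochberg adjusted p under 0.05 over all genes tested, and members that are said to rise or fall passed it. The tests measure the spread between rats of one group. The 57 kidney libraries used held 4.6 to 28.1 M counts (M, 1000000 counts, median 10.1 M) and the 60 heart libraries 6.74 to 23.6 M (median 12.2 M). Left out were kidney lean replicate 8, which holds muscle transcripts, and kidney BT2 replicate 2 and kidney study B vehicle replicate 8, which hold under 1000000 counts. The labelled organs matched their markers: summed CPM of 5 cardiac muscle markers was 20531 to 38477 in heart libraries and 4.76 to 818 in kidney libraries. Some libraries also held transcripts of another tissue: 4 combination kidneys held liver transcripts, a further one, replicate 7, held cardiac transcripts, heart lean replicate 8 held kidney transcripts, and 9 heart libraries held more atrial and 2 more skeletal muscle transcripts than the rest. Results that rest on these libraries are given with and without them. Kidneys used from both studies also held muscle transcripts. In study A summed CPM of 5 skeletal muscle markers reached 1190 in lean, 1699 in obese vehicle and 738 in BT2 kidneys (medians 85.6, 74.6 and 158). Cardiac markers reached 353 CPM in its obese vehicle kidneys (median 13.5). In study B the skeletal muscle sum reached 256 in vehicle and 181 in empagliflozin kidneys (medians 17.9 and 15.5). These kidneys were not among the libraries left out for another tissue. With the combination against vehicle 3 of 5 skeletal muscle markers were lower and 0 higher (median log2 fold change -1.76). The part of muscle in the kidney values was not tested.

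In kidney, 38 of the 67 members reached a group mean of 1 CPM, 27 reached 5 CPM, 11 reached 100 CPM and 3 reached 1000 CPM, while 29 stayed below 1 CPM in every group and 3 had no count in any library. Counts are not divided by transcript length, so they set no order between genes. By counts, the members with the most were Cyp4a2 (organ means of 6235 and 4019 CPM under its IDs), Cyp2c23 (904 CPM), Cyp4a8 (589 CPM), Cyp4a3 (517 CPM), Cyp2e1 (207 CPM), Cyp4f1 (140 CPM), Cyp2d3 (133 CPM), Cyp2d2 (115 CPM), Cyp2d5 (104 CPM), Cyp4a1 (93.2 CPM) and Cyp4v3 (44.6 CPM). CYP4A genes took 82.4% to 88.8% of the P450 counts of a kidney library (median 85.4%, 57 libraries). All members together took a median of 1.58% of all counts in lean kidneys, 1.43% in obese vehicle kidneys of study A, 1.48% with BT2, 0.970% in obese vehicle kidneys of study B, 1.10% with empagliflozin and 1.43% with the combination. Reads of the near-identical Cyp4a2 and Cyp4a3 and of the CYP2D genes may have been shared between copies by the authors' counting, so values of single members of these groups are uncertain.

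**Figure D1:**
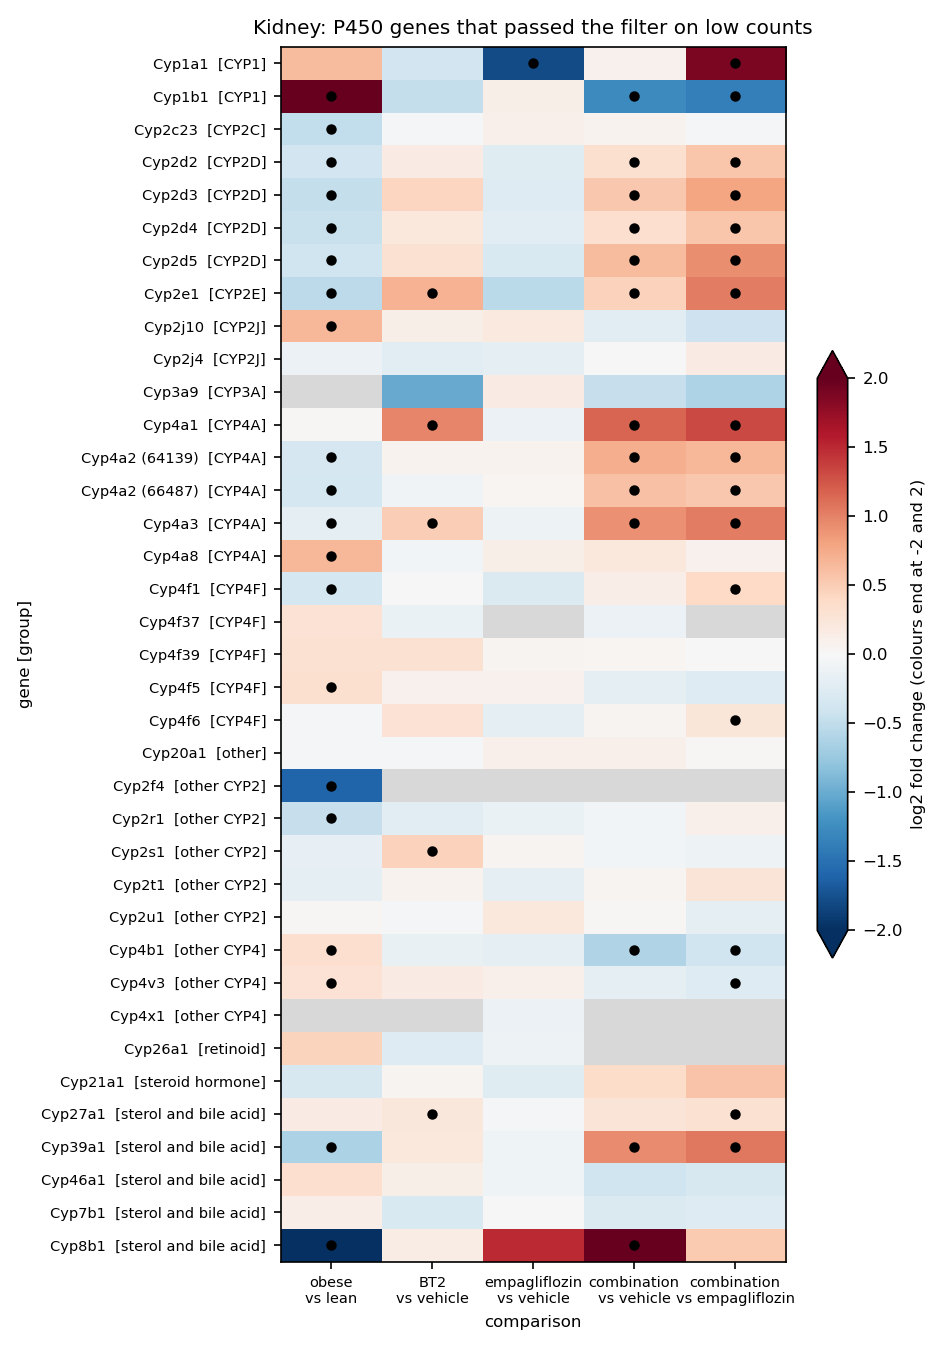
Heat map of log2 fold changes in kidney for the P450 genes tested, by comparison (columns) and gene (rows, grouped by family). Colours end at 2 in either direction, black dots mark an adjusted p under 0.05, and grey cells were not tested. The obese column holds 20 dots, the BT2 column 5, the empagliflozin column 1, and the combination columns 13 against vehicle and 17 against empagliflozin.

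The first comparison asks what differs between obese and lean kidneys on vehicle in study A. Cyp8b1, a sterol hydroxylase needed to make cholic acid, was far lower in obese kidneys. Cyp1b1, which oxidises estrogens and aromatic hydrocarbons, rose several-fold, and Cyp4a8 rose while Cyp4a2 and Cyp4a3 fell. Of 67 members 35 passed the filter on low counts; 6 rose and 14 fell, 57.1% of those tested, where 38.1% of all genes tested were called (19.6% higher and 18.5% lower). The median log2 fold change of the 35 was -0.12, beside -0.01 over all genes. A member that passed the filter only through its higher group had to differ, so these shares describe the genes tested and not the family. In bulk tissue, fewer cells of a type and less RNA per cell cannot be told apart.

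Cyp8b1 read 21.5 CPM at the lowest, 26.5 at the median and 35.3 at the highest in 9 lean kidneys, against 0.725, 1.73 and 2.97 CPM in 10 obese kidneys. Every obese kidney lay far below every lean one. The log2 fold change was -4.08 ± 0.19 (adjusted p = 6.49e-12, edgeR), with -4.50 among the libraries of plate 1 and -3.67 among those of plate 2. Other sterol enzymes moved less: Cyp39a1, an oxysterol 7-hydroxylase, read 3.20, 4.56 and 6.11 CPM (lowest, median, highest) in lean and 1.76, 2.95 and 3.78 CPM in obese kidneys, with overlapping groups and a log2 fold change of -0.64 ± 0.15 (adjusted p = 0.00176, edgeR). Cyp2r1, a vitamin D 25-hydroxylase, fell by 0.46 ± 0.16 on the log2 scale (adjusted p = 0.0273, edgeR), from a median of 12.9 to 8.30 CPM with overlapping ranges. Its call was lost without lean replicate 6 (adjusted p = 0.0651) or lean replicate 10 (adjusted p = 0.0585).

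Cyp1b1 read 0.736, 2.16 and 3.56 CPM in lean kidneys (lowest, median, highest) and 4.07, 10.7 and 17.9 CPM in obese ones. No obese kidney reached down into the lean range. Its log2 fold change was 2.19 ± 0.24 (adjusted p = 3.99e-07, edgeR). Cyp1a1, the best known AHR target, read a median of 1.10 CPM in lean and 1.41 CPM in obese kidneys and was not called (log2 0.63 ± 0.38, adjusted p = 0.208, edgeR). Of 4 AHR targets tested outside the family, Ahrr, the receptor's repressor, was lower (log2 -0.77 ± 0.19) and none was higher. Markers of fibroblasts moved with Cyp1b1: 3 of 4 were higher, with a median log2 fold change of 0.90, and their summed CPM was 329 to 398 in lean kidneys (median 366) and 343 to 828 in obese ones (median 659). Macrophage markers were higher in 3 of 4 cases, with summed CPM of 56.3 to 71.3 and 76.6 to 149, and none of the 4 was at 0 in all libraries of a group. The part of either cell type in the Cyp1b1 value was not tested.

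**Figure D2:**
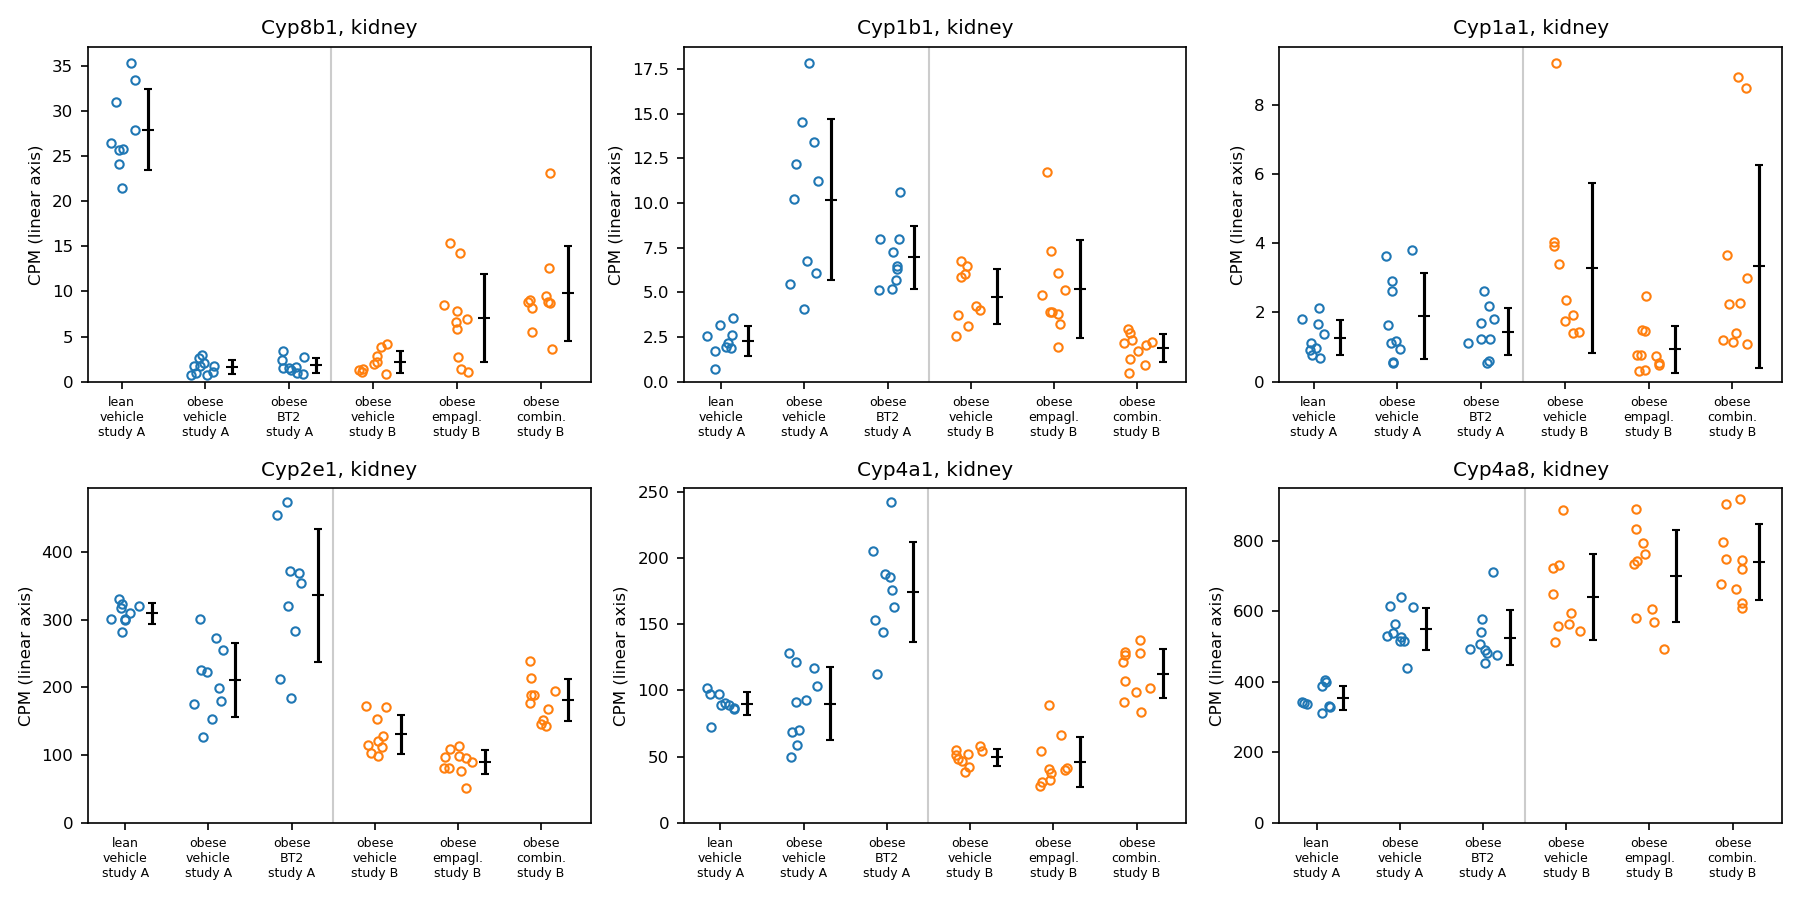
CPM of 6 P450 genes in each kidney library (points), by group, with the mean ± SD as a bar with whiskers; blue points are study A and orange points study B. Cyp8b1 in lean kidneys (21.5 to 35.3 CPM) lies above the obese vehicle kidneys (0.725 to 2.97 CPM), while Cyp1b1 and Cyp4a8 lie below them.

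The fatty acid hydroxylases split. Cyp4a8, whose transcript depends on sex hormones in rat kidney, read 311, 339 and 405 CPM in lean and 440, 534 and 640 CPM in obese kidneys (lowest, median, highest). The obese kidneys all lay above the lean ones (log2 0.66 ± 0.07, adjusted p = 4.03e-07, edgeR). Cyp4a2, a maker of 20-HETE, fell under both IDs: ENSRNOG00000064139 read 7295, 7956 and 8776 CPM in lean and 5136, 6317 and 7333 CPM in obese kidneys (log2 -0.33 ± 0.08, adjusted p = 0.00157, edgeR), and the other ID fell by 0.35 ± 0.09. The ranges met at their edges, with the highest obese kidney at the level of the lowest lean one. Cyp4a3 fell by 0.20 ± 0.08 (adjusted p = 0.0412, edgeR), from a median of 589 to 515 CPM. Cyp4a1, the CYP4A gene best known as a PPARA target in liver, had means of 90.0 ± 8.47 CPM (SD, n = 9) and 90.0 ± 27.6 CPM (SD, n = 10) and was not called (log2 0.03 ± 0.14). The spread between obese kidneys was the wider one. The Cyp4a3 call held in 7 of 19 fits that each left out 1 library (adjusted p 0.0201 to 0.0799) and was lost without lean replicates 1, 4, 5, 6, 7, 9 or 10 or obese replicates 4, 5, 6, 9 or 10.

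Cyp4f1, a hydroxylase of leukotrienes and arachidonic acid, fell from a median of 164 to 129 CPM (log2 -0.35 ± 0.06, adjusted p = 0.000215, edgeR), with ranges of 147 to 200 CPM in lean and 113 to 148 CPM in obese kidneys that touched. Cyp4f5 rose by 0.33 ± 0.12 (adjusted p = 0.0396, edgeR), in overlapping groups. Its call held in 10 of 19 fits that left out 1 library (adjusted p 0.0108 to 0.0898) and was lost without lean replicates 1, 2, 5, 7, 9 or 10 or obese replicates 4, 9 or 10. Cyp4b1, which oxidises medium-chain fatty acids and furans, rose by 0.34 ± 0.07 from a median of 25 to 31.7 CPM, and Cyp4v3, the rat relative of the fatty acid hydroxylase CYP4V2, by 0.30 ± 0.05. The epoxygenase Cyp2c23 read 1281, 1526 and 1609 CPM in lean and 614, 1094 and 1514 CPM in obese kidneys. In obese kidneys 8 of 10 lay below the lean range, and the spread among them was wide (log2 -0.50 ± 0.14, adjusted p = 0.00755, edgeR). Cyp2j10, of another epoxygenase subfamily, rose by 0.67 ± 0.21 (adjusted p = 0.0159, edgeR), at medians of 0.842 and 1.27 CPM.

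Cyp2e1, which oxidises ethanol, acetone and fatty acids, read 281, 309 and 330 CPM in lean and 126, 211 and 301 CPM in obese kidneys, and overlapped only at the upper end of the obese range (log2 -0.53 ± 0.12, adjusted p = 0.0011, edgeR). All 4 CYP2D genes fell, by 0.39 ± 0.06 (Cyp2d2), 0.40 ± 0.13 (Cyp2d5), 0.45 ± 0.08 (Cyp2d4) and 0.48 ± 0.12 (Cyp2d3) on the log2 scale. Cyp2d2 read 115 to 158 CPM in lean and 87.0 to 126 CPM in obese kidneys, so the groups overlapped. Cyp2f4, known for naphthalene oxidation in lung, read 1.08 to 2.7 CPM in lean kidneys and 0.142 to 1.07 CPM in obese ones, which did not overlap (log2 -1.60 ± 0.25, adjusted p = 3.31e-05, edgeR). Markers of the proximal tubule, where many of these genes are expressed, moved with them: 5 of 8 were lower, with a median log2 fold change of -0.48, and their summed CPM was 10640 to 12962 in lean and 5324 to 8489 in obese kidneys. Their part in these values was not tested.

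Partner genes of the family were read from lists. Of 16 nuclear receptors and other regulators of P450 genes tested, 11 were lower and 0 higher (median log2 fold change -0.38, beside -0.01 over all genes), among them Hnf4a, a hepatocyte and tubule transcription factor (log2 -0.53 ± 0.07), the growth hormone receptor Ghr (-0.57 ± 0.07), the bile acid receptor Nr1h4 (-0.42 ± 0.10) and the estrogen receptor Esr1 (-1.11 ± 0.16). Of 12 electron donors and heme genes, Hmox1, which breaks heme down, was the 1 that rose (log2 1.11 ± 0.13) and 4 fell, with Cyb5a, cytochrome b5, at -0.41 ± 0.07. Of 12 other eicosanoid enzymes 9 rose and 1 fell, among them the prostaglandin dehydrogenase Hpgd (1.05 ± 0.09), the lipoxygenase Alox15 (2.15 ± 0.21) and the thromboxane synthase Tbxas1 (0.98 ± 0.13), beside the higher macrophage markers given above. Tbxas1 is itself a P450, listed here because its symbol lies outside the rule for members. Of 15 PPARA targets outside the family 7 rose and 6 fell; Angptl4, an inhibitor of lipoprotein lipase, rose by 2.90 ± 0.15, while Cyp4a1 had the same mean in both groups. Of 9 bile acid and oxysterol partners 2 rose, Ch25h (1.29 ± 0.12) and Hsd3b7 (0.83 ± 0.13), and 3 fell, among them the side-chain enzymes Acox2 (-0.78 ± 0.08) and Amacr (-0.60 ± 0.06).

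BT2 was then compared with vehicle in obese kidneys of study A; this comparison and the former share the obese vehicle kidneys. Members of CYP4A and Cyp2e1 rose, and none fell. Of 35 members tested 5 rose and 0 fell, where 8.22% of all genes were called (3.75% higher and 4.47% lower), and 12 members had an unadjusted p under 0.05. The median log2 fold change was 0.07 over the members and 0.00 over all genes.

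Cyp4a1 read 50.0, 92.0 and 129 CPM in obese vehicle kidneys (lowest, median, highest) and 112, 176 and 242 CPM with BT2. All 9 BT2 kidneys lay above the vehicle median, and the ranges overlapped only at their ends. The log2 fold change was 0.97 ± 0.16 (adjusted p = 0.00084, edgeR). Cyp4a3 rose by 0.49 ± 0.11 (adjusted p = 0.00818, edgeR), from 407, 515 and 614 CPM to 469, 712 and 927 CPM. The remaining CYP4A rows were not called: both Cyp4a2 IDs had overlapping ranges (medians of 6317 and 6400 CPM for ENSRNOG00000064139), and Cyp4a8 had a log2 fold change of -0.06 ± 0.08 (adjusted p = 0.663, edgeR).

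Cyp2e1 read 185, 354 and 474 CPM with BT2, against 126, 211 and 301 CPM on vehicle. Its log2 fold change was 0.69 ± 0.17 (adjusted p = 0.0142, edgeR) in overlapping groups, and the BT2 kidneys spread over the lean range and beyond. Cyp2s1, an extrahepatic enzyme of eicosanoid and retinoid oxidation, rose by 0.46 ± 0.12 (adjusted p = 0.0191, edgeR), from a median of 9.88 to 13.8 CPM, and was not called without BT2 replicate 1 (adjusted p = 0.0523). Cyp27a1, the mitochondrial sterol 27-hydroxylase, rose by 0.23 ± 0.07 (adjusted p = 0.04, edgeR), from a median of 17.2 to 20.1 CPM. Its call held in 6 of 19 fits without 1 library (adjusted p 0.0181 to 0.0828) and was lost without vehicle replicates 1, 2, 3, 7, 8 or 9 or BT2 replicates 1, 3, 4, 6, 8, 9 or 10. Neither of the genes that moved most with obesity was called. Cyp8b1 stayed at 0.852 to 3.36 CPM (median 1.55), with a log2 fold change of 0.14 (95% interval from the SE, -0.39 to 0.67), and Cyp1b1 had a log2 fold change of -0.47 ± 0.19 (adjusted p = 0.127, edgeR).

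The number of called members in this comparison was sensitive to single libraries: it was 9 without vehicle replicate 6 and 3 without BT2 replicate 1. On plate 1 alone and on plate 2 alone 0 members were called (edgeR), where Cyp4a1 had log2 fold changes of 0.94 ± 0.20 (adjusted p = 0.0504) and 1.00 ± 0.23 (adjusted p = 0.0944). PPARA targets outside the family moved with Cyp4a1: 7 of 15 rose and 1 fell (median log2 fold change 0.34), among them Ehhadh (1.61 ± 0.13) and Acaa1b (2.08 ± 0.15), peroxisomal enzymes of fatty acid oxidation. Alas1, the first enzyme of heme synthesis, rose by 0.31 ± 0.06. Proximal tubule markers were lower in 2 of 8 cases and higher in 0, with summed CPM of 5324 to 8489 on vehicle and 4322 to 7505 with BT2.

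Empagliflozin was compared with vehicle in obese kidneys of study B. Cyp1a1 was the 1 member that passed the test, and it fell. Of 35 members tested 0 rose and 1 fell, where 0.651% of all genes were called (0.318% higher and 0.332% lower), 4 members had an unadjusted p under 0.05, and the DESeq2 Wald test called 2. The median log2 fold change was -0.09 over the members and 0.01 over all genes. Cyp1a1 read 1.42, 2.35 and 9.22 CPM on vehicle (lowest, median, highest) and 0.322, 0.750 and 2.48 CPM with empagliflozin. The ranges overlapped, with 9 of 10 treated kidneys below the vehicle median. Its log2 fold change was -1.79 ± 0.38 (adjusted p = 0.0329, edgeR). The call held in 10 of 19 fits without 1 library (adjusted p 0.0166 to 0.0685) and was lost without vehicle replicates 2, 9 or 10 or empagliflozin replicates 2, 3, 4, 8, 9 or 10.

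Cyp2e1 read 99.0, 120 and 172 CPM on vehicle and 51.9, 92.6 and 114 CPM with empagliflozin. All 10 treated kidneys lay below the vehicle median, but the log2 fold change of -0.54 ± 0.13 missed the threshold (adjusted p = 0.0593, edgeR). Cyp8b1 read 0.828, 1.91 and 4.21 CPM on vehicle and 1.11, 6.77 and 15.4 CPM with empagliflozin. The treated kidneys spread more widely, 8 of 10 lay above the vehicle median, and the log2 fold change of 1.5 ± 0.42 was not called (adjusted p = 0.0798, edgeR). On plate 1 alone Cyp8b1 had a log2 fold change of 0.84 and on plate 2 alone 2.27. In the authors' deposited table Cyp2e1 has a log2 fold change of -0.47 (adjusted p 0.00636) and Cyp8b1 of 1.22 (adjusted p 0.0117). Leaving out empagliflozin replicate 1 gave 2 called members, and leaving out empagliflozin replicate 5 gave 3. Among the partner lists, the cyclooxygenase Ptgs2 rose (log2 1.18 ± 0.26, adjusted p = 0.0356, edgeR) and the epoxide hydrolase Ephx1 fell by 0.37 ± 0.08 (adjusted p = 0.0361, edgeR).

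The combination was compared with vehicle and with empagliflozin in study B; these comparisons share the combination kidneys, and the first shares its vehicle kidneys with the empagliflozin comparison. Cyp8b1, 4 of the 5 CYP4A rows, all 4 CYP2D genes, Cyp2e1 and Cyp39a1 rose against vehicle, and Cyp1b1 and Cyp4b1 fell. Of 34 members tested 11 rose and 2 fell, where 31.5% of all genes were called (15.8% higher and 15.7% lower), and the median log2 fold change was 0.08 beside -0.01 over all genes. Against empagliflozin 14 of 33 rose and 3 fell, where 31.7% of all genes were called (17% higher and 14.8% lower), with a median of 0.24 beside 0.01.

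Cyp4a1 read 38.6, 51.1 and 57.7 CPM on vehicle, 28.0, 40.4 and 88.9 CPM with empagliflozin and 83.9, 114 and 138 CPM with the combination. The combination kidneys lay above all vehicle kidneys and met only the highest empagliflozin kidney. The log2 fold change was 1.17 ± 0.09 against vehicle (adjusted p = 1.95e-08, edgeR) and 1.31 ± 0.16 against empagliflozin (adjusted p = 3.89e-06, edgeR). Cyp4a3 read 272, 313 and 443 CPM on vehicle, 223, 319 and 401 CPM with empagliflozin and 551, 633 and 823 CPM with the combination, whose kidneys did not overlap with either group. Its log2 fold changes were 0.92 ± 0.10 and 1.03 ± 0.09. Cyp4a2 read 3554 to 5522 CPM on vehicle, 3434 to 6075 CPM with empagliflozin and 6541 to 9502 CPM with the combination under ENSRNOG00000064139. It did not overlap with either group (log2 0.73 ± 0.10, adjusted p = 7.18e-06, and 0.66 ± 0.09, adjusted p = 1.91e-05, edgeR), and the other ID rose by 0.59 ± 0.10 and 0.54 ± 0.10. Cyp4a8 read 513, 594 and 888 CPM on vehicle and 610, 732 and 920 CPM with the combination. It was not called (log2 0.20 ± 0.09, adjusted p = 0.0972, edgeR).

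Cyp8b1 read 3.66, 8.78 and 23.1 CPM with the combination, against 0.828, 1.91 and 4.21 CPM on vehicle. All 10 combination kidneys lay above the vehicle median and only the lowest met the vehicle range. The log2 fold change was 2.14 ± 0.30 (adjusted p = 1.49e-05, edgeR), and the lean kidneys of study A, given here for level only, read 21.5 to 35.3 CPM. Against empagliflozin Cyp8b1 was not called (log2 0.53, 95% interval -0.24 to 1.29), with 1.57 on plate 1 alone and -0.49 on plate 2 alone. All combination kidneys with liver transcripts were on plate 1, so plate and liver transcripts coincide there. Cyp39a1 read 1.45, 2.49 and 3.46 CPM on vehicle, 1.39, 2.40 and 3.63 CPM with empagliflozin and 2.25, 4.85 and 7.47 CPM with the combination, in overlapping groups with 9 of 10 combination kidneys above the vehicle median. It rose by 0.95 ± 0.21 against vehicle (adjusted p = 0.00133, edgeR) and by 1.05 ± 0.22 against empagliflozin. Against empagliflozin Cyp27a1 rose by 0.30 ± 0.09 (adjusted p = 0.0146, edgeR), from a median of 21.9 to 25.3 CPM.

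Cyp1b1 read 2.56, 4.25 and 6.78 CPM on vehicle, 1.97, 4.39 and 11.7 CPM with empagliflozin and 0.501, 2.12 and 2.97 CPM with the combination. The combination kidneys met the other groups only at their lower ends, and Cyp1b1 fell by 1.28 ± 0.24 against vehicle (adjusted p = 0.000323, edgeR) and by 1.37 ± 0.26 against empagliflozin (adjusted p = 0.000386, edgeR). Cyp4b1 fell by 0.60 ± 0.12 and 0.40 ± 0.11, from medians of 47.8 and 38.8 CPM to 32.2 CPM. Fibroblast markers moved with them: 3 of 4 were lower against vehicle, with summed CPM of 247 to 547 on vehicle and 209 to 309 with the combination, and macrophage markers were lower in 2 of the 3 tested, with 62.0 to 133 and 46.3 to 88.2 CPM. The part of these cells in the values was not tested. Cyp1a1 had a log2 fold change of 0.08 ± 0.45 against vehicle (adjusted p = 0.911, edgeR). Against empagliflozin it rose by 1.89 ± 0.47 (adjusted p = 0.00412, edgeR), with 1.10 to 8.80 CPM beside 0.322 to 2.48 CPM.

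Cyp2e1 read 143, 183 and 239 CPM with the combination. These kidneys lay above all empagliflozin kidneys (51.9 to 114 CPM) and overlapped the vehicle kidneys (99.0 to 172 CPM), with log2 fold changes of 1.02 ± 0.11 (adjusted p = 1.44e-06, edgeR) and 0.46 ± 0.12 (adjusted p = 0.00412, edgeR). The CYP2D genes rose against vehicle by 0.64 ± 0.12 (Cyp2d5), 0.54 ± 0.11 (Cyp2d3), 0.34 ± 0.09 (Cyp2d4) and 0.32 ± 0.11 (Cyp2d2), and against empagliflozin by 0.93 ± 0.17, 0.79 ± 0.15, 0.56 ± 0.10 and 0.56 ± 0.11 in the same order. Cyp2d3 read 106 to 228 CPM on vehicle and 193 to 261 CPM with the combination, so the groups overlapped. The Cyp2d2 call against vehicle was lost without combination replicate 3 (adjusted p = 0.0513). Smaller calls against empagliflozin were Cyp4f1 (0.40 ± 0.13), Cyp4f6 (0.24 ± 0.07) and Cyp4v3 (-0.26 ± 0.08). Of 8 proximal tubule markers 2 were higher and 5 lower against vehicle (median log2 fold change -0.68), while their summed CPM was 3590 to 5453 on vehicle and 4548 to 6905 with the combination. Among them Slc7a13, an amino acid transporter, read 365 to 1420 CPM on vehicle and 2037 to 3295 CPM with the combination. The part of tubule content in these values was not tested.

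Partner lists were read in the combination kidneys as well. Of 14 PPARA targets 9 rose and 3 fell against vehicle, with Ehhadh at 2.21 ± 0.10, Acaa1b at 1.85 ± 0.13 and Vnn1, a pantetheinase, at 1.06 ± 0.08 (log2), and 11 rose and 2 fell against empagliflozin. Of 14 regulators of P450 genes 7 rose and 0 fell in either comparison, among them Stat5b, which carries the growth hormone signal (0.63 ± 0.06), Ghr (0.77 ± 0.11) and Esr1 (2.03 ± 0.28) against vehicle. Of 12 electron donors and heme genes 3 rose, among them Alas1 (0.38 ± 0.09) and Cyb5a (0.39 ± 0.09), and the mitochondrial ferredoxin Fdx1 fell by 0.22 ± 0.07. Of 9 bile acid and oxysterol partners 4 rose and 1 fell, with the bile acid conjugating enzyme Baat at 1.08 ± 0.26 and the cholesterol exporter Abca1 at 1.00 ± 0.12. Ephx2, which breaks down the epoxides made by Cyp2c23, rose by 0.55 ± 0.10, while Cyp2c23 was not called (medians of 573 CPM on vehicle and 626 CPM with the combination).

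The effect of BT2 was set against itself with and without empagliflozin, as a difference of effects that spans study B and study A and shares no library between its arms. Of 35 members tested 5 differed upwards and 2 downwards, where 9.33% of all genes were called (5.59% upwards and 3.74% downwards). The effect with empagliflozin was larger for both Cyp4a2 IDs (difference 0.60 ± 0.14, adjusted p = 0.00534, and 0.61 ± 0.15, adjusted p = 0.00995, edgeR), Cyp4a3 (0.54 ± 0.15), Cyp1a1 (2.25 ± 0.63, adjusted p = 0.0196, edgeR) and Cyp39a1 (0.84 ± 0.27, adjusted p = 0.0429, edgeR). It was lower for Cyp2s1 (-0.56 ± 0.16) and Cyp4v3 (-0.42 ± 0.11). For Cyp4a1 the effects did not differ past the threshold (0.34 ± 0.24, adjusted p = 0.39, edgeR). The presence of empagliflozin and the study cannot be told apart here.

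Liver transcripts stood out in 4 combination kidneys. Alb, the albumin transcript, read 95.2, 25.1, 262 and 844 CPM in replicates 1, 2, 4 and 5, against 0 to 1.28 CPM in the other 6, and a median of 0.361 and at most 15.6 CPM in the 47 kidneys of other groups. A set of 8 P450 genes that liver expresses (Cyp3a18, Cyp1a2, Cyp2a1, Cyp2a2, Cyp2b3, Cyp2c7, Cyp2c13 and Cyp2c22) was selected by their values. Each was under 1 CPM in all kidneys of other groups and reached 1 CPM in a combination kidney. Each had a combination mean over 4 times its mean in the other groups. The choice thus fixed the low values outside the combination group, and left free only the order within it. Among the combination kidneys these 8 genes followed Alb. Their summed CPM was 4.15, 1.06, 11.7 and 42.7 in these replicates, and at most 0.958 in the other 6. Each of the 8 had its highest value in replicate 5. By the choice none reached 1 CPM in a kidney of another group (highest 0.403 CPM). Cyp2c7, a hepatic retinoid and drug hydroxylase, read 1.83, 0.494, 3.80 and 16.0 CPM in the same order.

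**Figure D3:**
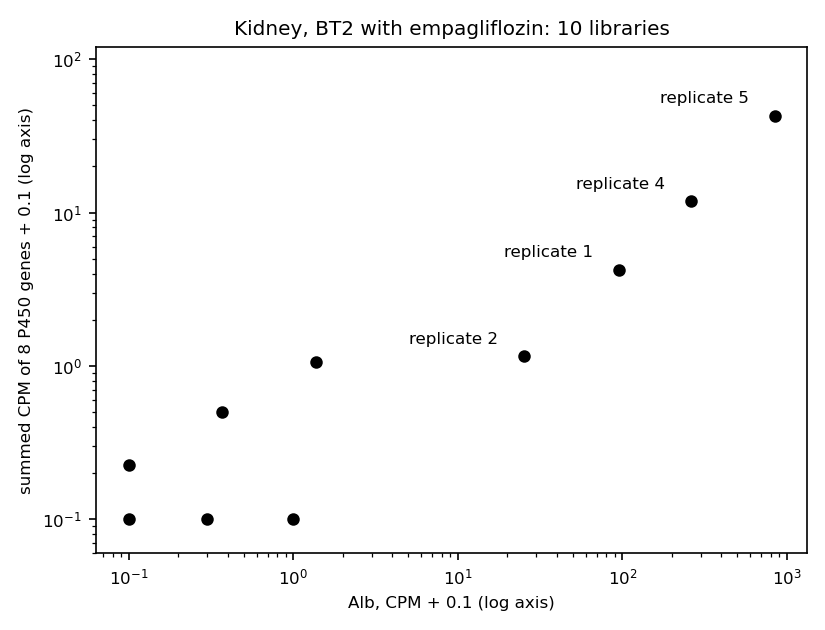
Summed CPM of 8 liver-expressed P450 genes (vertical axis, 0.1 added) against CPM of Alb (horizontal axis, 0.1 added) in the 10 combination kidneys, on log axes, with replicate numbers beside the points. Replicates 1, 2, 4 and 5 lie apart from the other 6 on the horizontal axis. On the vertical axis replicate 2 (1.06 CPM) lies level with replicate 8 (0.958 CPM). Replicate 5 is highest on both axes (42.7 and 844 CPM).

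Without these 4 libraries, an alternative chosen after seeing the data, 14 of 36 members tested were called against vehicle (10 higher and 4 lower). Against empagliflozin 13 of 34 were called (11 higher and 2 lower). The share of all genes called in these fits is not given here, so the counts compare settings only. Cyp8b1, which liver also expresses, kept its rise (log2 2.32, adjusted p = 0.0003, edgeR), as did Cyp2e1 (0.59, adjusted p = 0.0068) and Cyp39a1 (0.98, adjusted p = 0.0162), while Cyp2d2 was no longer called against vehicle (0.36, adjusted p = 0.0679). Against empagliflozin 4 members were no longer called among fewer libraries: Cyp4f1 had a log2 fold change of 0.30 ± 0.16 (adjusted p = 0.209, edgeR), Cyp27a1 of 0.22 ± 0.12 (adjusted p = 0.218), Cyp4f6 of 0.17 ± 0.08 (adjusted p = 0.194) and Cyp4v3 of -0.30 ± 0.11 (adjusted p = 0.0631). The difference of BT2 effects for Cyp39a1 was 0.80 and not called either (adjusted p = 0.0847). The low-count filter had kept the liver-expressed set out of the main test. Without it, 23 of 63 members tested were called against vehicle and 27 of 59 against empagliflozin, Cyp2c7 and Cyp2c13 among them. The set was selected for combination means over 4 times those of the other groups. Calls of its members thus follow from the choice and are no test of a rise.

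In heart, 22 of the 67 members reached a group mean of 1 CPM, 12 reached 5 CPM and 0 reached 100 CPM, and 13 had no count in any library. All members together took group medians of 0.0182% to 0.0231% of the counts. By counts, the members with the most were Cyp4b1 (organ mean 44.4 CPM), Cyp27a1 (37.2 CPM), Cyp2e1 (19 CPM), Cyp20a1 (17 CPM), Cyp4v3 (14.6 CPM), Cyp4f6 (13.5 CPM), Cyp11a1, which starts steroid synthesis from cholesterol (12.2 CPM), Cyp4f5 (11.6 CPM), Cyp2j4 (8.17 CPM), Cyp2d4 (5.83 CPM), Cyp2t1 (4.53 CPM) and Cyp4f39 (3.73 CPM). The CYP4A genes that fill the kidney's P450 counts were near 0 in heart. The exceptions were BT2 replicate 8, with 9.06 CPM for Cyp4a2, and lean replicate 8, with 107 and 43.4 CPM for the Cyp4a2 IDs and 12.7 CPM for Cyp4a8, and also 60.9 CPM of the kidney transcript Umod, which read at most 0.967 CPM in the other hearts apart from BT2 replicate 8 (4.17 CPM).

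In obese against lean hearts on vehicle, 0 of 20 members tested rose and 2 fell, where 5.36% of all genes were called (3.32% higher and 2.03% lower), and 5 had an unadjusted p under 0.05. The median log2 fold change was -0.09, beside 0.00 over all genes. Cyp4f5, a CYP4F fatty acid hydroxylase, read 11.3, 14.4 and 16.5 CPM in lean and 6.70, 9.08 and 11.1 CPM in obese hearts. The groups did not overlap (log2 -0.63 ± 0.09, adjusted p = 6.83e-05, edgeR). Cyp20a1, an enzyme with no known substrate, fell by 0.26 ± 0.06 (adjusted p = 0.0161, edgeR), from a median of 18.6 to 15.0 CPM in overlapping groups. Both calls held in 20 of 20 fits without 1 library. Cyp1b1 read a median of 3.22 CPM in lean and 2.04 CPM in obese hearts, with overlapping ranges, and was not called (-0.78 ± 0.24, adjusted p = 0.0646, edgeR); in the authors' deposited table it has a log2 fold change of -0.59 (adjusted p 0.0341). PPARA targets rose in 8 of 13 cases and fell in 0, with Angptl4 at 3.86 ± 0.17 (log2), in hearts that held next to no CYP4A counts.

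Neither BT2 nor empagliflozin alone changed a member in heart past the threshold. With BT2 0 of 19 members were called by edgeR, where 0.0558% of all genes were called (0.0239% higher and 0.0319% lower); 6 had an unadjusted p under 0.05, and DESeq2 called 2. With empagliflozin 0 of 16 were called, where 0.107% of all genes were called (0.0822% higher and 0.0247% lower); 4 had an unadjusted p under 0.05, and DESeq2 called 1. Cyp2e1 read 20.7, 22.2 and 30.7 CPM with BT2 against 10.5, 15.5 and 26.8 CPM on vehicle, in overlapping groups with 10 of 10 BT2 hearts above the vehicle median (log2 0.55 ± 0.14, adjusted p = 0.125, edgeR). In the authors' deposited table it has a log2 fold change of 0.46 with BT2 (adjusted p 0.0331). With empagliflozin it read 12.3, 20.1 and 27.4 CPM against 10.5, 14.7 and 19.6 CPM (log2 0.44 ± 0.13, adjusted p = 0.235, edgeR).

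With the combination 4 of 16 members rose in heart and 0 fell, where 5.13% of all genes were called (3.58% higher and 1.55% lower), with a median log2 fold change of 0.09 beside 0.00. Cyp2e1 read 23.1, 27.3 and 39.8 CPM, and all combination hearts lay above all vehicle hearts (10.5 to 19.6 CPM). Its log2 fold change was 0.99 ± 0.11 (adjusted p = 1.2e-05, edgeR). Cyp4f1 read 0.846, 2.14 and 2.77 CPM on vehicle and 2.54, 3.59 and 9.45 CPM with the combination, with ranges that met at their ends (log2 1.14 ± 0.22, adjusted p = 0.00366, edgeR). Cyp4f6 rose by 0.35 ± 0.10 (adjusted p = 0.036, edgeR) and Cyp4b1 by 0.31 ± 0.07 (adjusted p = 0.00926, edgeR), both in overlapping groups. The Cyp4f6 call held in 12 of 20 fits without 1 library (adjusted p 0.0191 to 0.0734) and was lost without vehicle replicates 1, 3, 4, 5 or 9 or combination replicates 4, 8 or 9.

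**Figure D4:**
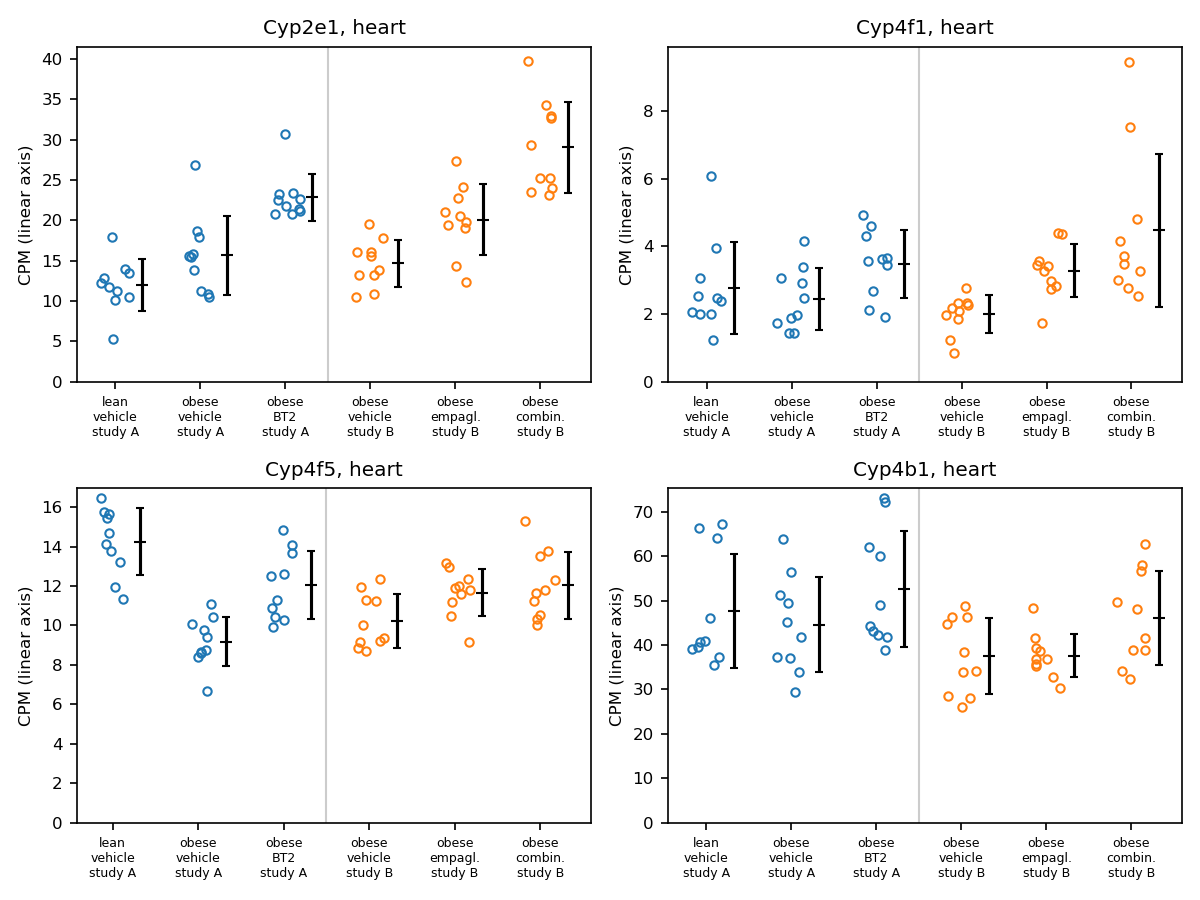
CPM of Cyp2e1, Cyp4f1, Cyp4f5 and Cyp4b1 in each heart library (points), by group, with the mean ± SD as a bar with whiskers; blue points are study A and orange points study B. Cyp2e1 with the combination (23.1 to 39.8 CPM) lies above vehicle B (10.5 to 19.6 CPM), and Cyp4f5 is lower in obese vehicle A hearts (6.70 to 11.1 CPM) than in lean ones (11.3 to 16.5 CPM).

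Transcripts of other muscle moved with this comparison. Skeletal muscle markers were higher in 3 of 5 cases, with summed CPM of 979 to 1648 on vehicle and 899 to 4412 with the combination, and atrial markers summed to 14.7 to 4437 CPM and 141 to 1247 CPM. Without the 7 hearts of these groups that stood apart (vehicle replicates 4, 5, 7 and 10 and combination replicates 6, 8 and 9), Cyp2e1 was the 1 member still called (log2 0.84, adjusted p = 0.0014, edgeR). Cyp4f1 had 0.80 (adjusted p = 0.13), Cyp4b1 0.15 (adjusted p = 0.445) and Cyp4f6 an adjusted p of 0.49 among these 13 libraries. Against empagliflozin alone 0 of 16 members were called by edgeR, where 0.0249% of all genes were called, 2 had an unadjusted p under 0.05 and DESeq2 called 1, and Cyp2e1 had a log2 fold change of 0.55 ± 0.13 (adjusted p = 0.194). Of 13 PPARA targets tested with the combination 4 fell, with Angptl4 at -1.99 ± 0.24, and 0 rose. The difference between the BT2 effects with and without empagliflozin gave 0 of 19 members in heart, where 0% of all genes were called by edgeR, 1 had an unadjusted p under 0.05 and DESeq2 called 0.

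Effects in heart and kidney were compared directly as a difference of log2 fold changes, heart minus kidney. With 10 rats in each condition, hearts and kidneys can come from the same rats; the labels do not tie them to each other, and the test treats them as independent. For obesity 4 of 37 members differed upwards and 8 downwards, where 15.9% of all genes were called (4.62% upwards and 11.3% downwards). Cyp1b1 had the largest difference of those tested in both organs, -3.0 ± 0.35 (adjusted p = 6.72e-08, edgeR), since it rose in kidney while its heart value was -0.78. Cyp4f5 differed by -0.99 ± 0.15 (adjusted p = 4.74e-06, edgeR), with a called rise in kidney and a called fall in heart. Cyp2e1 differed by 0.88 ± 0.23 (adjusted p = 0.00555, edgeR), with a fall in kidney and an uncalled 0.38 ± 0.18 in heart. Smaller differences were called for Cyp39a1 (0.94 ± 0.30), Cyp4b1 (-0.47 ± 0.15), Cyp4v3 (-0.42 ± 0.09), Cyp27a1 (-0.36 ± 0.09) and Cyp20a1 (-0.28 ± 0.09). The remaining calls were of genes that heart barely expresses. Upwards these were Cyp1a1 (4.98) and Cyp8b1 (4.29), at organ means of 0.199 and 0.0162 CPM in heart. Downwards they were Cyp4a8 (-5.61, adjusted p = 0.00384, edgeR) and Cyp4a3 (-3.34, adjusted p = 0.0447). These downward calls rested on heart lean replicate 8, without which they were -0.84 (adjusted p = 0.556) and 0.43 (adjusted p = 0.767).

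**Figure D5:**
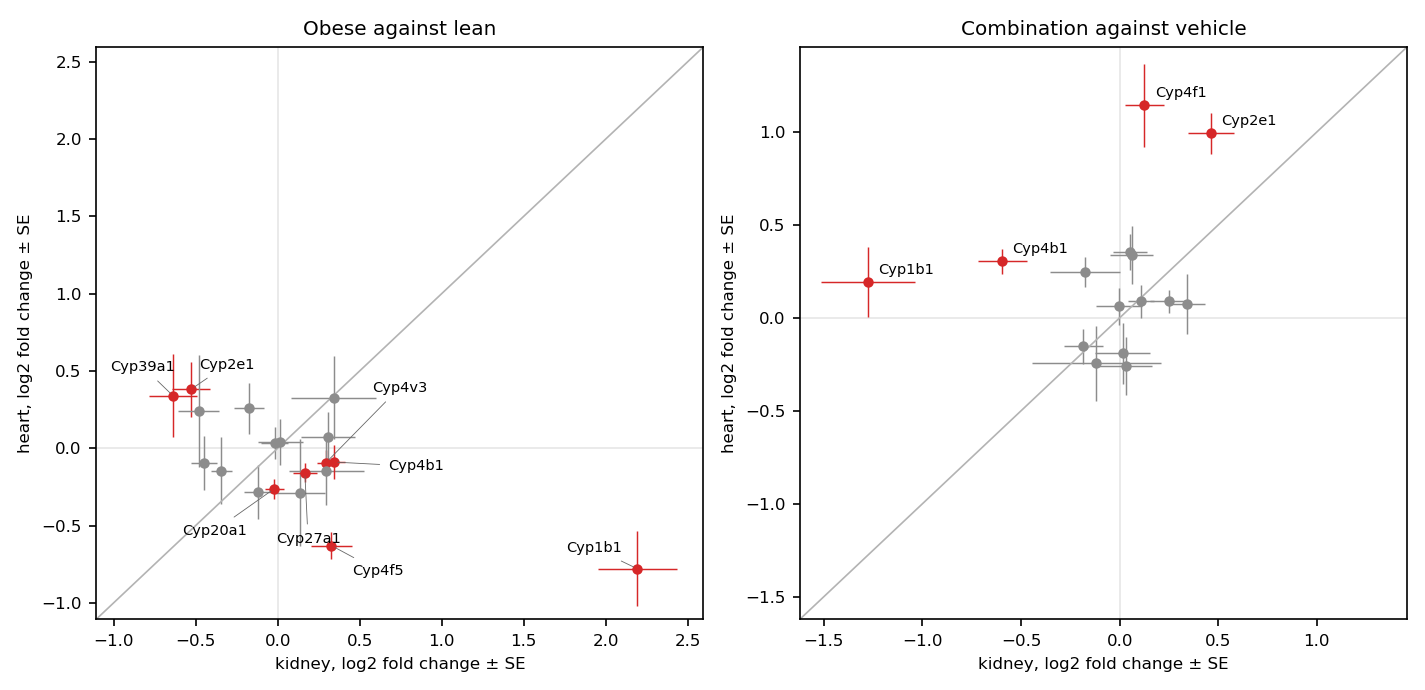
Log2 fold changes in heart (vertical axis) against kidney (horizontal axis) for P450 genes tested in both organs, with SE as whiskers, for obese against lean (left) and combination against vehicle (right). Red points have an adjusted p under 0.05 for the difference between organs; Cyp1b1 lies at 2.19 in kidney and -0.78 in heart in the left panel.

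For the combination 4 of 35 members differed upwards and 2 downwards, where 13.8% of all genes were called (7.13% upwards and 6.64% downwards). Cyp1b1 differed by 1.47 ± 0.30 (adjusted p = 0.000821, edgeR), Cyp4b1 by 0.91 ± 0.16 (adjusted p = 7.38e-05, edgeR) and Cyp4f1 by 1.03 ± 0.25 (adjusted p = 0.00417, edgeR). Cyp4b1 had a called fall in kidney and a called rise in heart. A further fit left out the hearts with transcripts of other muscle and kidney combination replicates 1, 4, 5 and 7. It kept replicate 2, which held fewer liver transcripts. Cyp1b1 (1.61, adjusted p = 0.00621, edgeR) and Cyp4b1 (0.76, adjusted p = 0.00957) were still called in it. Cyp4f1 (0.63, adjusted p = 0.175) and Cyp2e1 (0.39, adjusted p = 0.241) were not. In heart alone, without those hearts, Cyp4b1 was at 0.15 (adjusted p = 0.445). Cyp2e1 rose in both organs, by 0.46 in kidney and 0.99 in heart, and this difference of 0.53 ± 0.17 (adjusted p = 0.0321, edgeR) was not called without the 4 kidneys that held liver transcripts (adjusted p = 0.0768). The other calls were Cyp39a1 (-1.12, adjusted p = 0.0368, edgeR) and Cyp4a2 ENSRNOG00000066487 (-1.97, adjusted p = 0.0183), which were too low in heart to be tested there alone. In the further fit they were -1.63 (adjusted p = 0.0323) and -1.42 (adjusted p = 0.198).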

How the data were processed

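Poly-A RNA of 120 samples, 12 groups of 10, was sequenced from stranded libraries; per the labels, the first 5 replicates of a group were on plate 1 and the others on plate 2. The deposited count tables hold expected counts (estimated counts per gene, not normalized), of which 6.61% are not whole. The authors' comparison tables hold signal (counts scaled by library), log2 fold changes, p-values and adjusted p-values. Build mRatBN7.2, DESeq2 1.34.0, Salmon 1.5.2 and STAR 2.7.3a are named, without parameters, per the submitters' processing notes. Original and repeat runs (43 libraries) were summed and rounded. Of the count columns 163 were used, and 82 matched no sample of the series and were not used here.

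Counts were tested in R 4.3.3 with edgeR 4.0.16 (filterByExpr, TMM, quasi-likelihood F test, plate as covariate), each comparison on its own groups and differences of effects as interactions. SE is the log2 fold change divided by the square root of F. Libraries under 1000000 counts and kidney lean replicate 8 were left out. The script was tested on simulated data. Depth per library is given with the results, and low counts limit the precision of members under about 1 CPM.

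Members and lists were chosen with earlier results of these data known. Named are called members with a group mean of at least 1 CPM (at most 15 in each direction), the 12 of highest mean CPM in an organ, members at 100 CPM or more, and at most 4 called genes of a partner list by adjusted p. Called members of 5 CPM or more that changed by 1 or more on the log2 scale have values for their groups. Alternatives were the Wald test and the size factors of DESeq2 1.42.0, testing without the low-count filter, without the plate, within each plate, over the 6 groups of an organ jointly, with all libraries, with a replicate block and with each library left out. Leaving out single libraries and libraries with transcripts of other tissues was chosen after seeing the data. Lengths of transcripts were not used here. Some genes of the lists are not reported here.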

Additional observations from a re-analysis of the deposited data

Results flagged for a closer look

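In 36 groups of libraries of members with values for every group, the highest or lowest library was compared with the rest, and 3 stood far from its group; chance alone marks about 1 in 20 groups. Cyp8b1 read 23.1 CPM in kidney combination replicate 3, where the next was 12.6 CPM; that library held 0.903 CPM of Alb and none of the liver-expressed P450 set. Cyp2e1 read 26.8 CPM in heart obese vehicle A replicate 3, where the next was 18.6 CPM, and 30.7 CPM in heart BT2 replicate 3, where the next was 23.4 CPM.

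Differences of log2 fold changes were called by edgeR as interactions. The BT2 effect in kidney with minus without empagliflozin differed for Cyp1a1 (2.25), Cyp39a1 (0.84), Cyp4a2 (0.60 and 0.61), Cyp4a3 (0.54), Cyp4v3 (-0.42) and Cyp2s1 (-0.56). Among members tested in both organs, the obesity effect in heart minus kidney differed for Cyp1b1 (-3.0), Cyp4f5 (-0.99), Cyp4b1 (-0.47), Cyp4v3 (-0.42), Cyp27a1 (-0.36), Cyp20a1 (-0.28), Cyp2e1 (0.88) and Cyp39a1 (0.94). Among these members the combination effect in heart minus kidney differed for Cyp1b1 (1.47), Cyp4f1 (1.03), Cyp4b1 (0.91) and Cyp2e1 (0.53).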

How the results depend on the processing

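Of 2271 values of 96 gene results under the alternatives, 2041 kept direction and side of the threshold, 224 kept direction but were no longer called, 4 became called and 2 reversed: Cyp4a3 in heart minus kidney for obesity, at 0.11 on plate 1 alone and 0.43 without heart lean replicate 8. Counts of called members moved by over 1.5 times as follows, and the cause was not tested, except that a single plate leaves fewer samples. Shares over all genes are not given for these settings, so the counts compare settings only. On plate 1 alone they were 0 for BT2 and 0 for empagliflozin in kidney, 2 for empagliflozin and 1 for the combination in heart, 3 for the difference of BT2 effects in kidney, and 7 (obesity) and 2 (combination) for heart minus kidney. On plate 2 alone they were 11 for obesity, 0 for BT2, 0 for empagliflozin and 5 for combination against empagliflozin in kidney, 1 for obesity and 0 for the combination in heart, 0 for the difference of BT2 effects in kidney, and 2 and 3 for heart minus kidney. With no plate term they were 0 for empagliflozin in kidney, 1 for obesity and 2 for the combination in heart. With all 6 groups in one fit they were 8 for BT2 and 3 for empagliflozin in kidney, 6 for obesity and 1 for BT2 in heart. With all libraries they were 2 for BT2 and 2 for empagliflozin in kidney. DESeq2's Wald test called 2 for empagliflozin in kidney, and 2 for BT2, 1 for empagliflozin and 1 for combination against empagliflozin in heart. With no low-count filter they were 23 and 27 for the combination in kidney against vehicle and empagliflozin, with members of the selected liver-expressed set among them. Without the hearts with transcripts of other muscle it was 1 for the combination in heart. Without these and kidney combination replicates 1, 4, 5 and 7 it was 3 for the combination in heart minus kidney. Leaving out 1 library at a time gave 17 to 21 (obesity), 3 to 9 (BT2), 0 to 3 (empagliflozin), 13 to 16 and 17 to 19 (combination against vehicle and empagliflozin) in kidney, 2 to 3 (obesity) and 3 to 4 (combination) in heart. For heart minus kidney in obesity only heart lean replicate 8 was left out, which gave 11.

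Replicate numbers were not treated as pairs in the main tests. Between 0 and 6 of the 9 or 10 same-numbered pairs of a comparison correlated above 0.1. The 6 were of 10 pairs for empagliflozin against vehicle in heart (median correlation 0.117). For combination against empagliflozin in kidney, 3 of 10 libraries correlated best with their own number. Such correlations cannot exclude a pairing. A replicate block gave 17 called members for obesity, 2 for BT2, 1 for empagliflozin, 12 and 17 for the combination in kidney, and 2 for obesity and 3 for the combination in heart.

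Depth limits members below about 1 CPM, counts of near-identical CYP4A and CYP2D genes are uncertain, and kidney cortex and whole kidney cannot be told apart.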

Other observations

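Cyp1a1 in heart lay below the low-count filter. It had 0 counts in 10 lean hearts and 39 counts in 8 of 10 obese vehicle hearts of study A (0.281 CPM pooled). With 3 counts allowed over the lean group (0.0206 CPM), the obese value was 13.7-fold that allowance. This ratio takes no account of the spread between rats. BT2 hearts held 69 counts in 9 libraries, and in study B vehicle hearts held 20 in 8, empagliflozin hearts 13 in 8 and combination hearts 19 in 4. With no filter on low counts, edgeR called the difference between obese and lean hearts (adjusted p = 0.00794). In kidney, where Cyp1a1 was tested, the obese and lean medians were 1.41 and 1.10 CPM and the difference was not called. With no filter the difference of these effects, heart minus kidney, was called (log2 4.96 ± 1.20, adjusted p = 0.00544, edgeR).

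The filter was applied per comparison, so a member below it in one kidney comparison could be tested in another. Of members below it for obesity in kidney, Cyp4x1, a fatty acid amide epoxygenase, and Cyp3a9, a steroid hydroxylase, were called higher in obese kidneys when no filter was used (log2 1.78 ± 0.47 and 1.16 ± 0.29, adjusted p = 0.00568 and 0.00379, edgeR). With the combination Cyp4x1 was called lower against vehicle (-1.59 ± 0.35) and against empagliflozin (-1.52 ± 0.37), and Cyp26a1, which clears retinoic acid, lower against vehicle (-1.13 ± 0.34). Cyp4f18 was called lower against vehicle (-2.65 ± 0.82) and against empagliflozin (-2.93 ± 0.92), at a kidney mean of 0.224 CPM. These genes were chosen after their values were seen.

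The authors' deposited tables list at an adjusted p under 0.05 8 higher and 14 lower members in obese kidneys, 6 higher with BT2, 1 higher and 2 lower with empagliflozin and 12 higher and 5 lower with the combination against vehicle, and in heart 1 higher and 3 lower for obesity, 2 higher with BT2, 0 with empagliflozin and 4 higher with the combination. These include all 20 members called here in obese kidneys, all 5 called with BT2, the 1 called with empagliflozin and all 13 called with the combination against vehicle in kidney, and the 2 (obesity) and 4 (combination) called in heart, each with the same sign. In each of these comparisons except empagliflozin and the combination in heart, the authors' tables list more members than were called here.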
